A study of Mus musculus with 5 samples.

Results

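The genes described here carry out glycolysis or answer to hypoxia, and their transcripts were read on arrays of fat cells grown from the mouse line C3H10T1/2, mesenchymal cells that become adipocytes in culture. The list names 39 genes, and a member was taken when a probe set on the array named that gene alone. Such probe sets were found for 35 of the 39, out of 18193 genes in all, and the brightest probe set stood for its gene. Of these 35, 32 reached the floor, an intensity of 8.39 that is the median of the probe sets' mean levels, on at least 1 array. The glucose transporter gene Slc2a3, the brain aldolase gene Aldoc and the prolyl hydroxylase gene Egln3 were under it on all 5 arrays. Gapdh and Bnip3l had only probe sets that name several genes, and Gpi1 and Eno1 were not among the named probe sets, so these 4 were not analysed here. Ero1l is called Ero1a below, its newer symbol.

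The study placed total RNA of fully differentiated C3H10T1/2 adipocytes on 5 Affymetrix arrays, 1 for each group, after 6 h of treatment. Cells were given butein, sulfuretin or DMSO, the solvent, and a further pair of arrays holds cells given resveratrol and their own solvent control, DMSO1. Butein is a chalcone, sulfuretin an aurone and resveratrol a stilbene, all plant polyphenols. The labels give no dose and no oxygen level, and all groups come from 1 cell line. Each treated array was set against its own solvent array, and the study asked which adipogenic or anti-adipogenic factors are common to the compounds. With 1 array per group there is no error from replicates and no test within a comparison. A gene is called past the criterion when its intensity differed at least 2-fold, a log2 difference of 1 or more. The differences between the arrays DMSO1 and DMSO, after all 5 arrays were quantile normalized together, are given beside the results. They hold the difference between the sets in which the arrays were processed as well as that between solvent cultures, and these cannot be told apart. Deposited levels of DMSO1 and resveratrol are on another scale than those of the other arrays, so levels are ordered across all 5 only where the quantile normalized values give the same order.

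Glycolysis splits glucose into pyruvate. Glucose enters through carriers, hexokinase traps it, phosphofructokinase commits it, and lactate dehydrogenase and the monocarboxylate carriers turn pyruvate into lactate and export it. The hypoxia-inducible factor HIF is a transcription factor whose alpha subunit is hydroxylated by Egln enzymes and then degraded when oxygen is present. When the subunit is stable, HIF binds the core letters ACGTG or GCGTG and raises glycolytic genes together with genes for blood vessel growth, mitophagy, collagen hydroxylation and pH control. In fat tissue hypoxia and HIF are studied mainly in obesity.

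Genes of the list differ in how often those letters stand near their start. In RefSeq promoters of build GRCm38.p6, taken from 250 bases before to 50 after the most upstream start of each gene, ACGTG or GCGTG on either strand was found in 24 of the 30 counted members with a window, a share of 80.0%. The same search found it in 43.8% of the windows of 27025 genes, and 66.7% of the members against 20.8% of all genes held at least 2 matches. Over all 35 members with a window the share with a match was 80.0% too. The 27025 genes include those not counted on the arrays, and windows were not matched for base content, so the shares are no test of enrichment. An ACGTG inside the palindrome CACGTG counts on both strands. By role, the letters stood in 9 of 10 windows of HIF targets outside glycolysis, in 7 of 12 windows of glycolytic enzymes, in all 3 of the carriers and in all 4 of the kinases that set glycolytic flux. Vegfa, a classical HIF target, had no match in this window.

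The 250 bases before the start are shown for Slc2a1, Ak4 and Hk2, which passed the criterion with butein and sulfuretin, for Ero1a, which passed it with butein, and for Ldha, which has the most matches among the members and differed little. The matches are in capitals, each strand is read 5′ to 3′ in the direction of the gene, and the last base is position -1. Slc2a1 lies at chr4:119108495-119108744 on the plus strand, Ak4 at chr4:101419039-101419288 on the plus strand, Ero1a at chr14:45318573-45318822 on the minus strand, Hk2 at chr6:82774455-82774704 on the minus strand and Ldha at chr7:46845554-46845803 on the plus strand.
Slc2a1: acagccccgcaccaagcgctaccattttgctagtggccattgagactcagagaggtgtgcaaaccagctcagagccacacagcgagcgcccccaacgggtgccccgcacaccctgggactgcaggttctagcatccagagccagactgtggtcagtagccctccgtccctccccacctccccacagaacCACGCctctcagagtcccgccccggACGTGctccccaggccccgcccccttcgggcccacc
Ak4: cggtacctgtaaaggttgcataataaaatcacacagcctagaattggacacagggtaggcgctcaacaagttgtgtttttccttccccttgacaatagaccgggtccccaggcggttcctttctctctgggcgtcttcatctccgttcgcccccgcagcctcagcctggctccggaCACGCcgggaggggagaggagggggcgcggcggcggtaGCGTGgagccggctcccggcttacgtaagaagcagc
Ero1a: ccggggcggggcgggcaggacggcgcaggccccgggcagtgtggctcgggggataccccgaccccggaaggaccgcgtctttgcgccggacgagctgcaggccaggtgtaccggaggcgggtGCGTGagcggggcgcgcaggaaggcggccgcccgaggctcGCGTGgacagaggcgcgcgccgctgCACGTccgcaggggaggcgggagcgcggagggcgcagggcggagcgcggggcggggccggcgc
Hk2: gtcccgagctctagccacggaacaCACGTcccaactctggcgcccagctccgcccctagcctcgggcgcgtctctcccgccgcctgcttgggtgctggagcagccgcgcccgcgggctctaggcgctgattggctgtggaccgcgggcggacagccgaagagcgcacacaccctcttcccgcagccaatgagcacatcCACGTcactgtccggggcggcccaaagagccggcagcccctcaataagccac
Ldha: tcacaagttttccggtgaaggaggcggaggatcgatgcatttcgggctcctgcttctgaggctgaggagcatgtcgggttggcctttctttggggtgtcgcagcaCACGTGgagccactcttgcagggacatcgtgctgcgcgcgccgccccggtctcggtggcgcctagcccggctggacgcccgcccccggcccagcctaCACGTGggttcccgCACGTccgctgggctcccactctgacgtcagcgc
Both matches of Slc2a1 lie close to the start, with first bases at -61 and -36, and so do the pair of Ak4 at -74 and -36. Ero1a has 3 matches, at -128, -88 and -63. In Hk2 they lie at -226 and -52. The 5 matches printed for Ldha form 2 CACGTG palindromes and a further CACGT, and the whole window of 300 bases holds 7. A match is only a run of letters and no binding was measured.

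Butein gave higher levels of most HIF targets on this list outside glycolysis, a list chosen with earlier results of these data known, of the carriers Slc2a1 and Slc16a1 and of hexokinase Hk2, while the other glycolytic enzymes differed little. Of the 32 counted members 8 passed the criterion upward and 0 downward, where 2.03% of all 12439 counted genes were higher and 0.297% lower. The 8 were Ak4, Slc2a1, Ero1a, Bhlhe40, Hk2, Slc16a1, P4ha1 and Kdm3a. By sign, 25 members were higher, 4 lower and 3 exactly equal with butein, and the median log2 difference was 0.26 against 0 over all counted genes, of which 33.0% were higher. With sulfuretin 3 members passed, Ak4, Slc2a1 and Hk2, all higher, where 0.193% of all counted genes were higher and 0.0482% lower past the criterion. The members' median with sulfuretin was 0.39, with 23 higher, 5 lower and 4 equal. With resveratrol 0 members passed the criterion, where 0.0804% of all counted genes were higher and 0.0643% lower, and the members' median was -0.06 with 8 higher, 22 lower and 2 equal. No replicated test stands behind these counts. Butein and sulfuretin share the DMSO array, so their values rest on the same control.

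**Figure D1:**
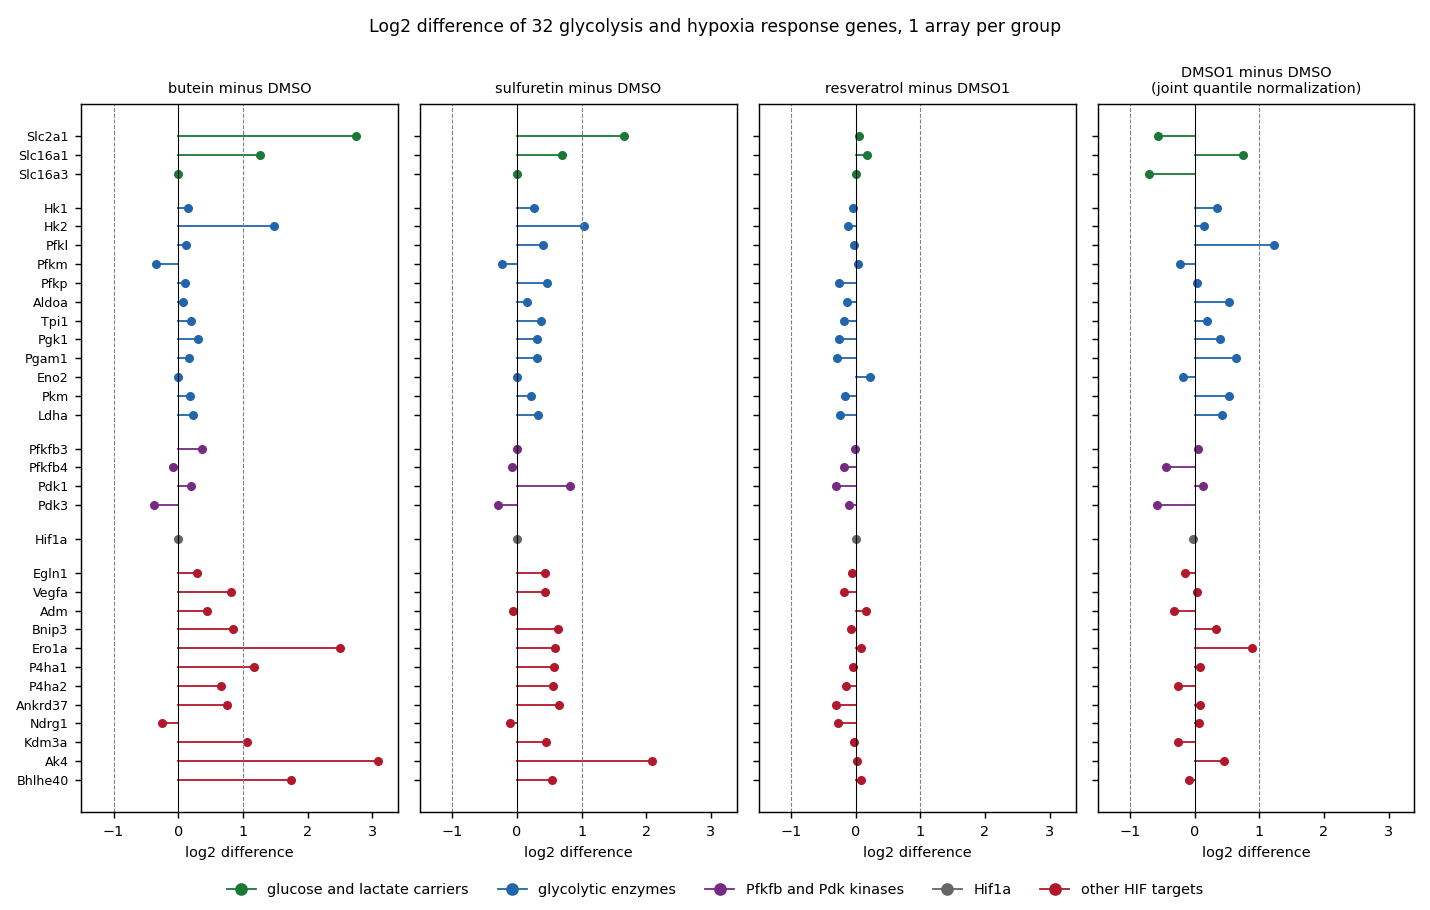
Log2 differences of the 32 counted genes in rows, grouped and coloured by role, for the 3 treatments against their own solvent array and for DMSO1 minus DMSO after joint quantile normalization. Each point is 1 gene on 1 pair of arrays with no replicate, and dashed lines mark the 2-fold criterion. Points past the line at 1 are 8 for butein, 3 for sulfuretin and 0 for resveratrol.

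The arrays carried the marks of fat cells. Of 11 adipocyte markers 10 had a single-gene probe set and all 10 reached the floor, with a summed intensity from 22339 on the butein array to 26832 on the DMSO1 array. Summed intensities of 6 macrophage markers were 54.4 to 95.2. Of these 4 reached the floor on at least 1 array, Cd14 the brightest at 17.4 to 46.1. Ptprc and Adgre1, which define blood-derived cells and macrophages, were under the floor. The 4 endothelial markers summed to 20.9 to 30.3, and 1 of them reached the floor. The 5 muscle markers summed to 70.1 to 210.6, and 2 reached the floor, Acta1 the brighter at 45.3 to 179. The 6 fibroblast and preadipocyte markers summed to 4500 to 5462, and 5 reached the floor, with Dlk1 under it. Adipocyte markers summed to 25701 with DMSO, 22339 with butein and 25814 with sulfuretin, and their part in the results was not tested. In RNA from a whole culture, fewer cells of a type and less RNA per cell cannot be told apart.

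Among the carriers, Slc2a1 (NCBI gene 20525) encodes GLUT1, the basal glucose transporter. Its intensity was 153.0 with DMSO, 1030 with butein, 480 with sulfuretin, 144.0 with DMSO1 and 149.6 with resveratrol. Only the butein and sulfuretin arrays were high, 6.73-fold and 3.14-fold above DMSO, and resveratrol was 1.04-fold above DMSO1. All 3 probe sets of Slc2a1 gave the same picture, with log2 differences of 2.75 to 3.01 with butein and of 1.63 to 1.82 with sulfuretin. A fit with limma took DMSO and DMSO1 as replicates. With butein on the deposited values it called Slc2a1 alone among the members, where 0.145% of counted genes were called higher and 0.0161% lower. After joint quantile normalization it called 0 members and 0 of all counted genes. On the deposited values the fit used 1 common variance for all genes, set by solvent arrays on different scales, so its calls are given as values only.

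Slc16a1 encodes a monocarboxylate carrier that moves lactate and ketone bodies. It read 108.6 with DMSO, 262 with butein, 175 with sulfuretin, 253 with DMSO1 and 286 with resveratrol. Butein was 2.41-fold and sulfuretin 1.61-fold above DMSO, while the solvent arrays differed by 0.75 on the log2 scale after joint quantile normalization. Against the other solvent array on that scale the difference was 0.47 with butein and -0.08 with sulfuretin. Slc16a3, the carrier that exports lactate from glycolytic cells, stood at 8.95 on the DMSO, butein and sulfuretin arrays alike, barely at the floor.

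The glycolytic enzymes showed small differences apart from Hk2. Hk2, the insulin-regulated hexokinase of fat and muscle, read 80.8 with DMSO, 225 with butein, 166 with sulfuretin, 130 with DMSO1 and 120 with resveratrol. It was 2.79-fold higher with butein and 2.05-fold higher with sulfuretin, the latter just past the criterion. With sulfuretin it passed in 5 of 9 alternatives, and its lowest log2 difference was 0.83, with the other solvent array. Hk1, the housekeeping hexokinase, differed by 0.16 with butein and 0.26 with sulfuretin. Of the 12 counted enzymes 10 were higher, 1 lower and 1 equal with butein, and their median was 0.16.

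Sulfuretin gave the same count of 10 higher, 1 lower and 1 equal among the enzymes, with a median of 0.31. Ldha, the lactate dehydrogenase subunit of glycolytic tissue, read 1468 with DMSO, 1715 with butein, 1845 with sulfuretin, 2141 with DMSO1 and 1802 with resveratrol. Both compounds were above DMSO, by 0.22 and 0.33 on the log2 scale, yet DMSO1 was the highest of the 5. Pgk1, the phosphoglycerate kinase that makes ATP, read 2340 with DMSO, 2902 with butein, 2893 with sulfuretin, 2978 with DMSO1 and 2488 with resveratrol. Here the butein and sulfuretin arrays lay together, each 1.24-fold above DMSO. The phosphofructokinase genes went different ways on their brightest probe sets. With sulfuretin Pfkp, the platelet type, was 0.47 and Pfkl, the liver type, 0.40 higher on the log2 scale. Pfkm, the muscle type, was 0.24 lower with sulfuretin and 0.34 lower with butein. Dimmer probe sets above the floor did not show these higher levels, with sulfuretin differences of 0.03 and 0 for Pfkl and 0 for Pfkp.

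The enzyme medians lie within the gap between the solvent arrays. After joint quantile normalization DMSO1 was above DMSO in 10 of the 12 enzymes, with a median of 0.37 and 1.23 for Pfkl, whose intensity was 75.7 with DMSO and 252 with DMSO1. Among all counted genes 2.32% passed the criterion upward and 3.5% downward between the solvent arrays. With the other solvent array as control on that scale, the enzyme median turned to -0.15 for butein, to -0.095 for sulfuretin and to 0.13 for resveratrol.

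**Figure D2:**
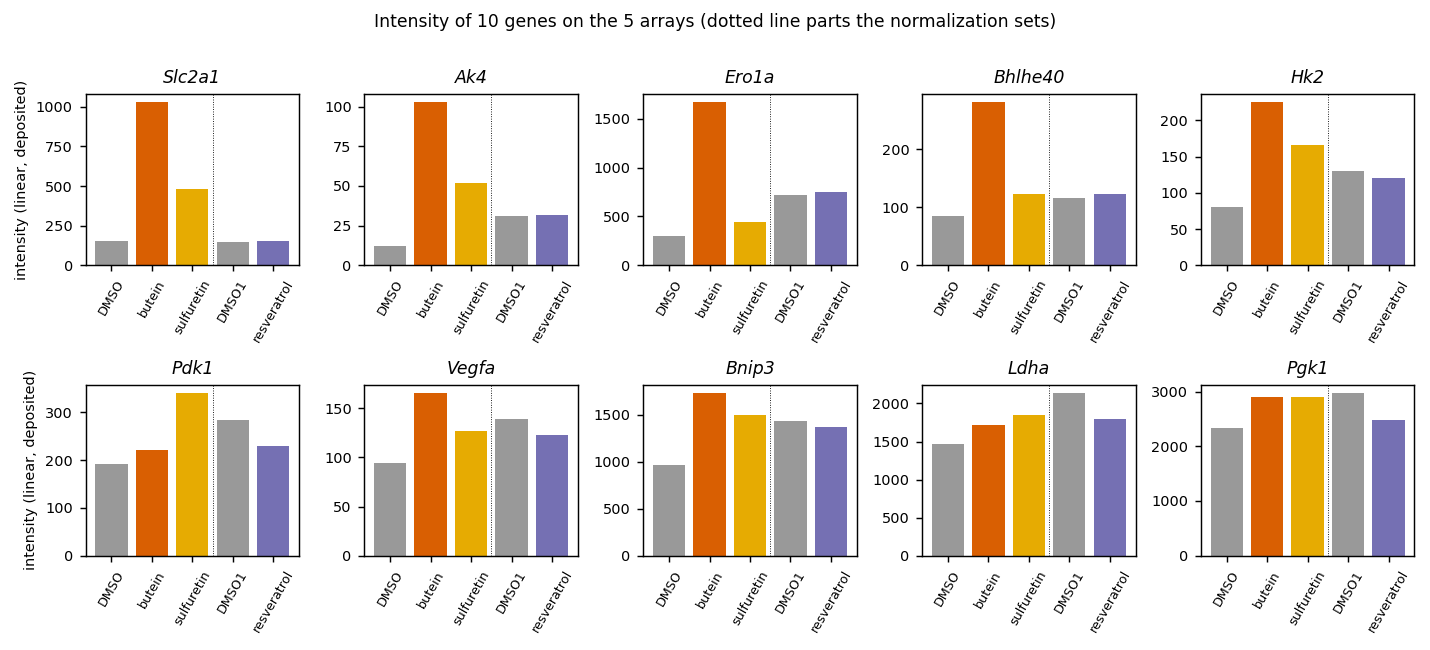
Deposited linear intensity of 10 genes on the 5 arrays, 1 bar per array, with a dotted line between the sets inferred from the values' distributions. Slc2a1, Ak4, Bhlhe40 and Hk2 have their highest bar with butein and the next with sulfuretin, Pdk1 has its highest with sulfuretin, and Ldha and Pgk1 are highest with DMSO1.

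Of the kinases that set glycolytic flux, Pdk1 differed most, and with sulfuretin rather than butein. Pdk1 encodes a pyruvate dehydrogenase kinase, which keeps pyruvate out of the mitochondrial cycle; its values, and those of Bnip3 below, are given because of their size. It read 192.6 with DMSO, 221 with butein, 341 with sulfuretin, 283 with DMSO1 and 228 with resveratrol. The sulfuretin array was the highest, 1.77-fold above DMSO against 1.15-fold for butein. The other 2 probe sets of Pdk1 above the floor gave log2 differences of 0.65 and 0.61 with sulfuretin and 0.27 and 0.15 with butein. Pdk3, a related kinase, was lower with both, by 0.38 with butein and 0.29 with sulfuretin on the log2 scale. Pfkfb3 and Pfkfb4 encode enzymes that make the activator of phosphofructokinase. Pfkfb3 was 0.37 higher with butein and equal with sulfuretin, and Pfkfb4 differed by -0.07 with each.

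On its brightest probe set Hif1a, the gene of the oxygen-regulated HIF subunit, gave exactly equal values of 488 on the DMSO, butein and sulfuretin arrays. It gave 610 on both the DMSO1 and resveratrol arrays. A dimmer probe set, at 43.5 with DMSO, was 0.08 lower on the log2 scale with butein and with sulfuretin. Another, at 6.46 with DMSO, was 0.37 and 0.39 lower. Equal values were common, at 29.9% of counted genes for butein and 33.1% for resveratrol. HIF protein, the form that oxygen controls, was not measured. Egln1, the main HIF prolyl hydroxylase and a HIF target itself, was 0.29 higher with butein and 0.43 with sulfuretin.

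HIF targets on this list outside glycolysis, chosen with earlier results of these data known, were mostly higher with butein. Of 12 counted, 11 were higher and 1, Ndrg1, lower, and the median log2 difference was 0.83 against 0.16 for the enzymes. Past 2-fold were 5, namely Ak4, Ero1a, Bhlhe40, P4ha1 and Kdm3a. The highest enzyme, Hk2 at 1.48, was exceeded by 3 of the 12. Pgk1 at 0.31, the next enzyme and a line chosen after the values were seen, was exceeded by 10. On the brightest probe sets all 12 differences of deposited values were larger in size than the quantile normalized gap between the solvent arrays for the same gene. So were 4 of the 12 enzymes and 27.7% of all counted genes. Dimmer probe sets did not all do so. A dimmer P4ha1 probe set differed by 0.68 with butein against a gap of 3.39, and a dimmer Ndrg1 probe set by -0.45 against 1.88. Of the 28 counted HIF pathway genes not on the list 42.9% exceeded their gap, and their median difference was 0.11.

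Ak4 encodes a mitochondrial adenylate kinase. It read 12.1 with DMSO, 102.8 with butein, 51.6 with sulfuretin, 31.3 with DMSO1 and 31.8 with resveratrol. Butein was 8.48-fold and sulfuretin 4.26-fold above a DMSO level near the floor. A dimmer probe set of Ak4 also passed, with 2.09 and 1.36 on the log2 scale, but another, at 12.7 with DMSO and 12.5 with butein, showed no such difference. With the mean of all its probe sets Ak4 was 0.72 higher with sulfuretin, short of the criterion, and 1.07 higher with butein.

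Ero1a encodes the oxidase that feeds disulfide bonds to proteins of the endoplasmic reticulum. Its intensity was 296 with DMSO, 1670 with butein, 445 with sulfuretin, 716 with DMSO1 and 754 with resveratrol. The butein array was 5.64-fold above DMSO and the highest of the 5. Sulfuretin was 0.59 above DMSO on the log2 scale but under both DMSO1 and resveratrol, and the solvent arrays differed by 0.89 on the log2 scale after joint quantile normalization. The other 2 probe sets gave 3.10 and 2.39 with butein, and 1.24 and 0.92 with sulfuretin. Against the other solvent array the difference was 1.53 with butein and turned to -0.30 with sulfuretin.

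Bhlhe40, a transcriptional repressor that links hypoxia and the clock, read 84.3 with DMSO, 281 with butein, 123 with sulfuretin, 116 with DMSO1 and 122 with resveratrol. Butein was highest, 3.33-fold above DMSO, and sulfuretin was 1.46-fold above it. P4ha1 encodes a catalytic subunit of collagen prolyl hydroxylase. It read 103.3 with DMSO, 233 with butein, 153.0 with sulfuretin, 156 with DMSO1 and 151 with resveratrol, and was 2.26-fold above DMSO with butein and 1.48-fold with sulfuretin. Kdm3a, a histone lysine demethylase, read 111 with DMSO, 232 with butein, 152.0 with sulfuretin, 132 with DMSO1 and about the same with resveratrol. It was 1.37-fold above DMSO with sulfuretin and 2.08-fold with butein, just past the criterion, and the latter was short of it at 0.96 when 16 was added before taking log2. P4ha1 with butein was short of it at 0.93 with the mean of its probe sets.

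The remaining targets stayed under 2-fold with butein on their brightest probe set. Vegfa, the gene of the main blood vessel growth factor, read 93.9 with DMSO, 166 with butein, 127 with sulfuretin, 138 with DMSO1 and 122 with resveratrol. It was highest with butein, at 1.76-fold, and its dimmer probe set was 1.72 higher with butein on the log2 scale. Bnip3, which encodes a mitophagy receptor, read 964 with DMSO, 1735 with butein, 1499 with sulfuretin, 1437 with DMSO1 and 1372 with resveratrol. Both compounds were above DMSO, by 0.85 and 0.64, in that order. P4ha2 differed by 0.67 with butein and 0.56 with sulfuretin, Ankrd37 by 0.75 and 0.65 at intensities of 7.60 to 13.4, and Adm, the gene of the vasodilator adrenomedullin, by 0.45 and -0.06. Ndrg1 was lower with all 3 compounds, by 0.26, 0.11 and 0.27 on the log2 scale.

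With sulfuretin the HIF targets had a median of 0.56 with 10 of 12 higher, nearer to the enzymes' 0.31 than with butein. Hk2 at 1.04 was exceeded by 1 of the 12, and Pfkp at 0.47, the next enzyme and again a line chosen after the values were seen, by 7. On the brightest probe sets the difference of 10 of 12 targets was larger in size than the gap between the solvent arrays. The same held for 4 of 12 enzymes, 42.9% of the 28 HIF pathway genes not on the list and 17.4% of all counted genes. The limma fit called 0 members for sulfuretin on either scale, where 0.00804% of counted genes were called on the deposited values. An unadjusted p under 0.05 was given to 2 members on the deposited values and 3 after joint quantile normalization, and to 0.289% and 0.297% of all counted genes.

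**Figure D3:**
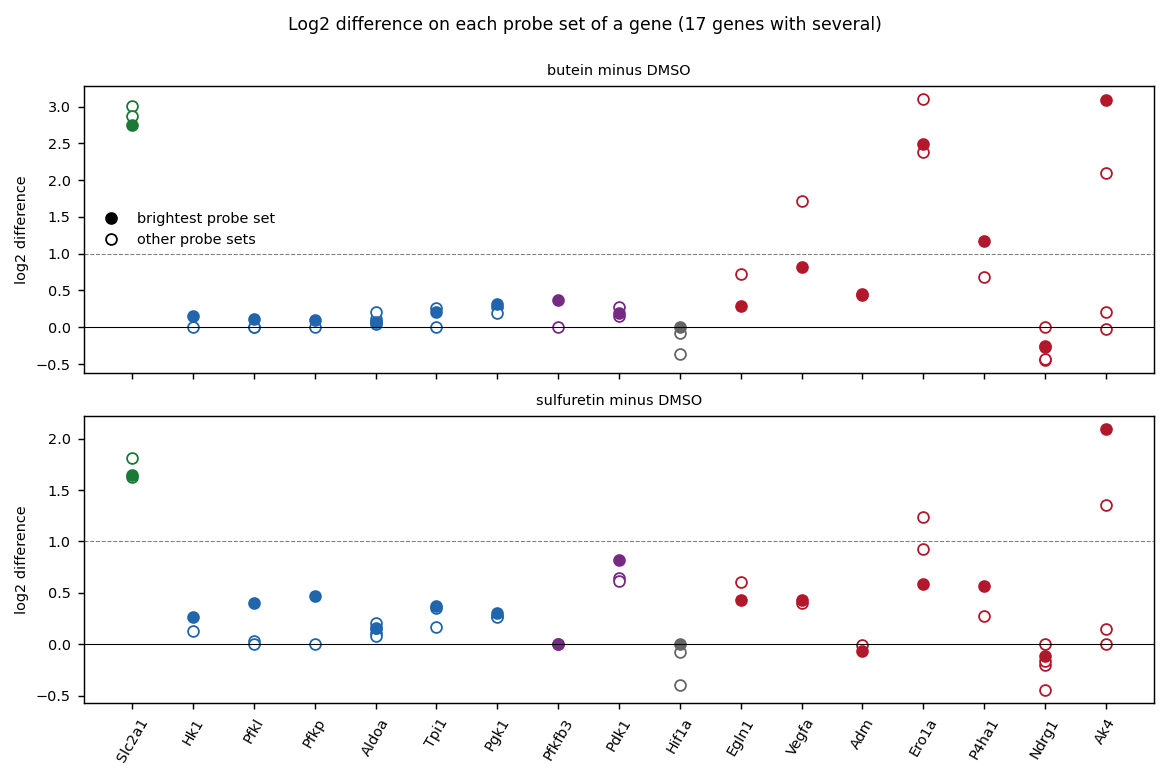
Log2 differences on every probe set above the floor for the 17 members with several, filled for the brightest and open for the others, with butein above and sulfuretin below. Probe sets of Slc2a1 lie together, those of Ak4 run from -0.02 to 3.08 with butein, and those of Pdk1 are higher with sulfuretin than with butein.

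Other probe sets of a member are a second reading of the same RNA and no replicate. The 17 members with several had 32 further probe sets above the floor. With butein 23 of the 24 that differed on both had the sign of the brightest and 1 the opposite sign, and with sulfuretin 25 of 25 had the same sign. Of 8 further probe sets of members past the criterion with butein, 5 passed the same way. With resveratrol 24 of 27 had the same sign. Between the solvent arrays after joint quantile normalization, 10 of the 64 probe sets of counted members were at least 2-fold higher with DMSO1 and 0 lower, where 7.53% of probe sets above the floor were higher and 3.49% lower.

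Set against each other, the arrays of butein and sulfuretin differed by role. Both compounds were given for 6 h, but the doses are not in the labels, so the values stand side by side and say nothing of potency. Sulfuretin was below butein in 10 of 12 HIF targets, with a median of -0.45, and above butein in 9 of 12 enzymes, with a median of 0.11. Over all counted genes 30.1% were below butein, 37.0% above and 32.9% equal, with a median of 0. At least 2-fold lower with sulfuretin were 3 members, Ero1a (-1.91), Bhlhe40 (-1.19) and Slc2a1 (-1.10), where 1.04% of all counted genes were lower and 0.0965% higher. Ak4 at -0.99 and Kdm3a and P4ha1 at -0.61 followed. On the brightest probe sets the members highest with sulfuretin relative to butein were Pdk1 (0.62), Pfkp (0.37) and Pfkl (0.29). There is 1 array on each side of the comparison, so no interval can be given for these differences.

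**Figure D4:**
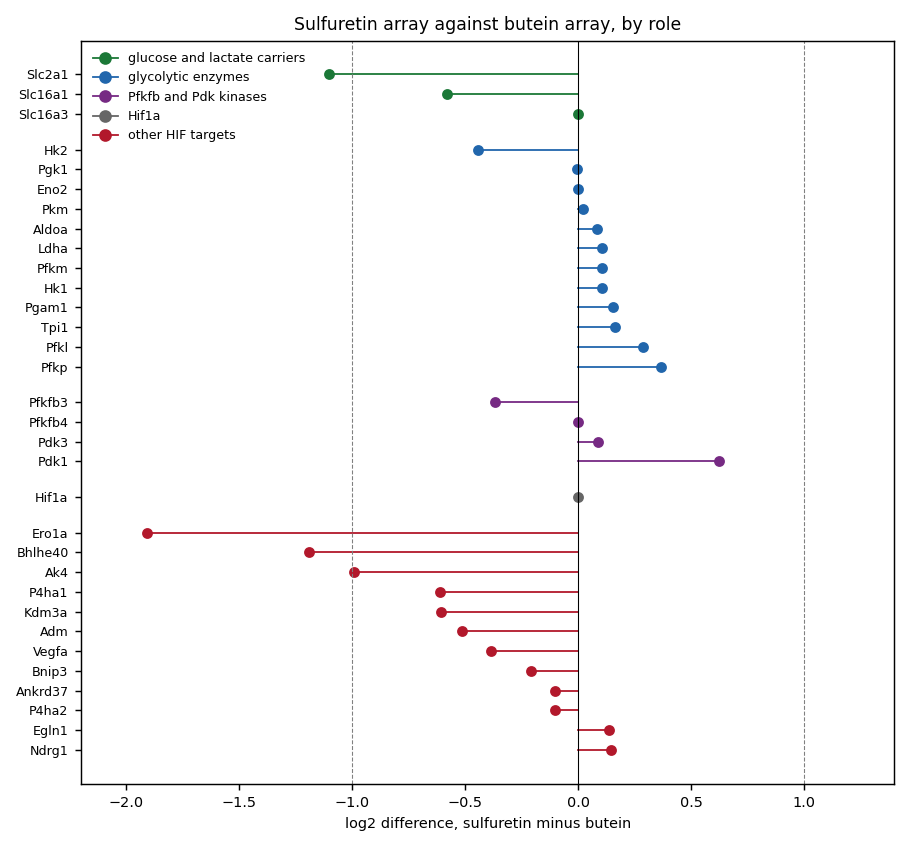
Log2 difference of the sulfuretin array minus the butein array for the 32 counted genes, ordered within each role, with dashed lines at the 2-fold criterion and no replicates. Ero1a, Bhlhe40 and Slc2a1 lie past the line at -1, 9 of 12 enzymes lie above 0 and 10 of 12 other HIF targets below it.

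Resveratrol left the members close to DMSO1, with most of them slightly lower. Of the 12 enzymes 10 were lower with resveratrol, with a median of -0.15, and the lowest were Pgam1 (-0.30), Pgk1 (-0.26), Pfkp (-0.26) and Ldha (-0.25). All 4 flux kinases were lower, Pdk1 by 0.31 on the log2 scale. Of the 12 HIF targets 8 were lower with a median of -0.05, the lowest being Ankrd37 (-0.30) and Ndrg1 (-0.27). Over all counted genes 34.0% were lower with resveratrol and the median was 0. Differences of 6 of the 32 members exceeded the gap between the solvent arrays in size, as did those of 12.9% of all counted genes. The limma fit called 0 members on either scale, and 0 of all counted genes too. An unadjusted p under 0.05 was given to 0 members on either scale. It was given to 0.193% of all counted genes on the deposited values and 0.241% after joint quantile normalization. With shares so low, these counts do not set the members apart from other genes.

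Genes of the same pathways that are not on the list were read the same way. Of 24 other glycolysis and pyruvate genes 19 were counted, and none passed the criterion either way with any of the 3 compounds. For butein, sulfuretin and resveratrol the shares of all counted genes past it were 2.03%, 0.193% and 0.0804% higher. Downward the shares were 0.297%, 0.0482% and 0.0643%. Medians of the 19 genes were -0.04 with butein, 0 with sulfuretin and 0 with resveratrol. Pdk4, the pyruvate dehydrogenase kinase of fasting, was 0.47, 0.50 and 0.74 higher, and Slc2a4, the insulin-regulated glucose transporter gene, 0.30, 0.35 and 0.48 lower on the log2 scale; both are named after their values were seen. Of 33 other HIF pathway genes 28 were counted. With butein 18 were higher and 7 lower, the median was 0.11, and 1 passed the criterion, Rora, a nuclear receptor gene, at 2.02-fold, against 2.03% of all counted genes. With sulfuretin 0 passed and the median was 0.093. With resveratrol 1 passed, Angptl4, which encodes a lipoprotein lipase inhibitor, at 2.16-fold, against 0.0804% of all counted genes, and the median was -0.01.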

How the data were processed

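Total RNA of 5 groups was measured on Affymetrix arrays, 1 each. Per the submitters' processing notes the authors used RMA. For its version and settings, "not given in the sources used here" applies. Values deposited by the authors are linear intensities, from 1.40 to 9340, and log2 was taken with no pseudocount. Sorted log2 values differed by a median of at most 0.0023 within DMSO, butein and sulfuretin and within DMSO1 and resveratrol, and by at least 0.50 between, from which 2 processing sets were inferred. Each treatment was compared with the solvent array of its own set. The platform annotation gave 34945 of the 45037 probe sets a single gene, 932 several and 9160 none. The brightest probe set by mean log2 stood for each gene. Genes whose highest value reached the floor, the median over probe sets, were counted, 12439 in all. Values within 1e-06 on the log2 scale were called equal. Members and lists were chosen with earlier results of these data known. All members were accounted for. Values on all arrays were given for those past the criterion and for defining genes of each role; Pdk1 and Bnip3 were added after their values were seen. Limma ran over all counted genes with Benjamini-Hochberg adjustment. Promoters came from RefSeq (GRCm38.p6). The procedure was run on simulated arrays with known changes. Those arrays held no difference between processing sets, so that run does not show how the calls hold in these data. Alternatives were other fold criteria, floors, probe set rules, normalizations and controls, a pseudocount of 16 and limma. Software was limma 3.58.1 in R 4.3.3, and numpy 2.4.6, pandas 2.3.3 and matplotlib 3.10.9 in Python 3.11.15.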

Additional observations from a re-analysis of the deposited data

How the results depend on the processing

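The fold criterion and the test moved the counts most. With butein 4 members passed at 3-fold, where 0.860% of counted genes were higher. Limma with the solvent arrays as replicates called 1 on the deposited values, where 0.145% of counted genes were higher and 0.0161% lower. After joint quantile normalization it called 0 members and 0 of all counted genes (unadjusted p under 0.05 on these scales in 4 and 8 members and in 1.46% and 2.84% of counted genes). With sulfuretin 8 members passed at 1.5-fold, where 1.36% of genes were higher and 0.378% lower, and limma called 0 on either scale. Sulfuretin against butein gave 7 members at 1.5-fold (0.981% of genes higher, 2.83% lower) and 1 at 3-fold (0.418% lower). With the other solvent array on the quantile scale, the enzyme medians reversed, to -0.15 for butein, -0.095 for sulfuretin and 0.13 for resveratrol. There 2 members, Pfkl and Ero1a, passed with resveratrol, where 2.48% of genes were higher and 4.37% lower, and Pfkl was the 1 member lower with butein, where 3.18% of genes were lower and 6.41% higher. The median of the other HIF targets with butein moved to 0.89 with the mean of all probe sets, 0.78 with the mean of both solvent arrays and 0.78 with 16 added before log2. With sulfuretin it moved to 0.51 with the other solvent array, 0.50 with the mean of both and 0.44 with 16 added, and with resveratrol to -0.13 with the other solvent array. The causes were not tested. Values were taken as moved when they shifted by more than the SD of the solvent arrays. Counts under no floor, a floor at percentile 75, centring and joint quantile normalization with the own control stayed within 1.5 times. Leaving out probe sets that can cross-hybridise, an alternative chosen after seeing the data, did so too. Of the 8 members past the criterion with butein, Slc2a1, Hk2, Ero1a, Ak4 and Bhlhe40 passed in all 9 alternatives at 2-fold, and Slc16a1 in 6. With sulfuretin Slc2a1 passed in 9, Ak4 in 8 and Hk2 in 5. No paired analysis was possible because each group has 1 array. The number of arrays limits the precision throughout.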

Other observations

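Subunits and regulators of HIF beside Hif1a are named here after their values were seen. Epas1, which encodes the other main oxygen-regulated HIF subunit, read 27.4 with DMSO, 14.3 with butein, 19.8 with sulfuretin, 50.8 with DMSO1 and 50.1 with resveratrol. It was 0.94 lower with butein and 0.47 lower with sulfuretin on the log2 scale. Vhl, the gene of the protein that marks the hydroxylated subunit for degradation, was 0.13 higher with butein and 0.33 with sulfuretin. Jmjd6, a hydroxylase gene of the same enzyme family as Kdm3a, was 1.96-fold higher with butein and 1.29-fold with sulfuretin. The mitochondrial genes Higd1a and Fam162a were 0.51 and 0.38 higher with butein, 0.43 and 0.36 higher with sulfuretin, and differed by -0.24 and -0.36 with resveratrol.

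Some dimmer probe sets of members differed widely between the solvent arrays while the brightest probe set of the same gene did not. One probe set of P4ha1 read 6.27 with DMSO and 95.1 with DMSO1, a log2 difference of 3.39 after joint quantile normalization, while the brightest differed by 0.09. A dimmer probe set of Hif1a read 6.46 and 65.8 against 488 and 610 on the brightest. For Ndrg1 a dimmer probe set read 31.0 and 225, and for Hk1 8.95 and 62.4.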
